A study of Mus musculus with 9 samples.

Results

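The mRNAs of 9 factors of nonsense-mediated mRNA decay (NMD), Upf1, Upf2, Upf3a, Upf3b, Smg1, Smg5, Smg6, Smg8 and Smg9, were followed in RNA immunoprecipitation sequencing (RIP-seq) of mouse B cells. They were chosen by name, as the rows of the count table whose NCBI Gene ID belongs to these symbols. All 9 were found among the 27179 identifiers of the table, and all 9 were among the 13129 genes with enough reads to be tested. RIP-seq precipitates a protein from a lysate and sequences the RNA bound to it. Every library came from wild-type splenic B cells, purified as CD43- cells and activated for 72 h with anti-IgM antibody (10 ug/mL), IL-4 (20 ng/mL) and, per the labels, CD40L (5 ug/mL), for which the methods name an anti-CD40 antibody. The p-UPF1 group (3 libraries) held RNA precipitated with an antibody against phosphorylated UPF1, the IgG group (3 libraries) held RNA that normal rabbit IgG brought down, and the input group (3 libraries) held RNA of the lysate. For the mice of the study as a whole the methods give an age of 8 to 16 weeks and both sexes, and name C57BL/6 as the background of the knock-in and Cre lines. No age, sex or strain is tied to these libraries. The methods describe the study's plotted samples in general as independent biological replicates, but neither they nor the labels name separate cultures or animals for these libraries. P values measure the spread between the libraries, which may then be technical.

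NMD degrades mRNAs on which translation ends in an unfavourable setting, such as upstream of an exon junction, after an upstream reading frame or before a long 3′ UTR. UPF1 is the RNA helicase at its centre, UPF2 and the UPF3 paralogues UPF3A and UPF3B link UPF1 to the exon junction complex, and the kinase SMG1, held in check by SMG8 and SMG9, phosphorylates UPF1. Phosphorylated UPF1 recruits SMG5, an adaptor to deadenylation and decapping, and SMG6, an endonuclease. Several mRNAs of this pathway are themselves known as NMD substrates in other cells, which is called autoregulation. The immunoprecipitation asked which mRNAs were recovered with p-UPF1 beyond both backgrounds. It did not measure decay.

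Because UPF1 acts where translation ends, the stop codon of each mRNA is shown, in capitals, with the 12 bases before it and the 12 bases after it, 5′ to 3′ on the mRNA strand, from the RefSeq annotation of GRCm38.p6 (the assembly that mm10 names).
Upf1: ctgtcccagtacTAGaaggtagcggag
Upf2: gggaggagacgtTGAtccagcagcacg
Upf3a: cacaaggcccagTAGaccatgggccat
Upf3b: ggaggagaggagTGAgaagtccaaatg
Smg1: acagcttgggtgTGAatggcaagacag
Smg5: aaggagattggtTGAgactggtctcca
Smg6: gcccaggtgggcTGAggggaccacact
Smg8: gcagttacacaaTGAgtcttccagcca
Smg9: cgcctgctggccTGAtgccgagggagc
In 7 of the 9 mRNAs the stop codon was TGA, which ended the coding sequence of 51.7% of the 11900 tested genes with an annotated coding transcript. Upf1 and Upf3a ended in TAG, as did 23.3% of those genes. TAA, found in 25.0% of them, ended none of the 9. The 4 mRNAs that met both enrichment criteria below had their stop codons at chr8:70332623-70332625 on the minus strand (Upf1), and on the plus strand at chr2:6055440-6055442 (Upf2), chr3:88361106-88361108 (Smg5) and chr11:75162948-75162950 (Smg6).

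Total counts ran from 17372510 to 24945286 per library. Replicates correlated with r of 0.982 to 0.997, and replicate pairs differed beyond sampling noise, least in input (chi-square of 1.38 to 1.73 per degree of freedom) and most in IgG (4.64 to 9.94). In the input libraries the 6 B cell markers summed to 3200 to 3223 CPM (counts scaled to library size), the 4 T cell markers to at most 0.560 CPM, and both erythroid markers were at 0. Of the 4 myeloid markers Adgre1 stood at 131 CPM and the 3 others each under 1 CPM. CPM are normalised by TMM, which assumes that most genes do not change, so a log2 fold change (Log2FC) of 0 marks the typical RNA of the library and not a fixed amount per cell. Fewer cells of a type and less RNA per cell cannot be told apart in such samples. Mitochondrially encoded mRNA made up 0.0706% to 0.0778% of the counts of a p-UPF1 library, against 2.05% to 2.24% for IgG and 2.47% to 2.53% for input. Scaling to equal mitochondrially encoded mRNA moved the median gene to 4.66 over IgG and 5.00 over input, from -0.03 in each with TMM.

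The 9 mRNAs ranged from a gain to a loss in p-UPF1. Upf1, Upf2, Smg5 and Smg6 were recovered with p-UPF1 at 4.14 to 6.15 times their level in IgG, Smg9 at 2.32 times, Smg1 and Upf3b at 1.77 and 1.33 times, and Upf3a and Smg8 at less than their level in IgG with TMM (at more with equal mitochondrially encoded mRNA). Over input the order of Smg1 (2.21 times) and Smg9 (1.97 times) was the other way round, and differences between members were not tested. In the quasi-likelihood test of edgeR (Benjamini-Hochberg adjustment, adjusted P under 0.05), 7 members were higher and 2 lower than in IgG (9 and 0 with equal mitochondrially encoded mRNA, where 99.4% of all genes were higher and 0.0305% lower), where 40.4% of all genes tested were higher and 42.2% lower. Against input the counts were also 7 and 2, where the shares of all genes were 40.8% and 42.6% (again 9 and 0 with equal mitochondrially encoded mRNA, where they were 99.4% and 0.0533%). In the same 7, all p-UPF1 libraries lay above all IgG and input libraries, as in 37.0% of all genes, and in the same 2 all p-UPF1 libraries lay below, as in 37.6%. The median Log2FC of the 9 was 1.21 over IgG and 1.15 over input, beside -0.03 for all genes in both contrasts. The contrasts share the p-UPF1 libraries and are not independent of each other.

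The study's criterion for a p-UPF1-bound RNA asks for a Log2FC of 1 or more against IgG and of 2 or more against input, both with an adjusted P under 0.05. It was met by 4 of the 9 (Upf1, Upf2, Smg5 and Smg6), where 6.25% of all genes tested met it. It was met by 3 (not by Upf1) with library size alone, with upper-quartile factors and with glmTreat, which tests the minimum itself, and by 9 with equal mitochondrially encoded mRNA, where 96.9% of all genes met it. The criterion over IgG alone was met by 5, with Smg9 as the other one, where 22.2% of all genes met it. The 9 mRNAs together summed to 938 ± 8.66 CPM in input, 1051 ± 47.8 CPM in IgG and 3122 ± 134 CPM after p-UPF1 precipitation (SD, n = 3).

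**Figure D1:**
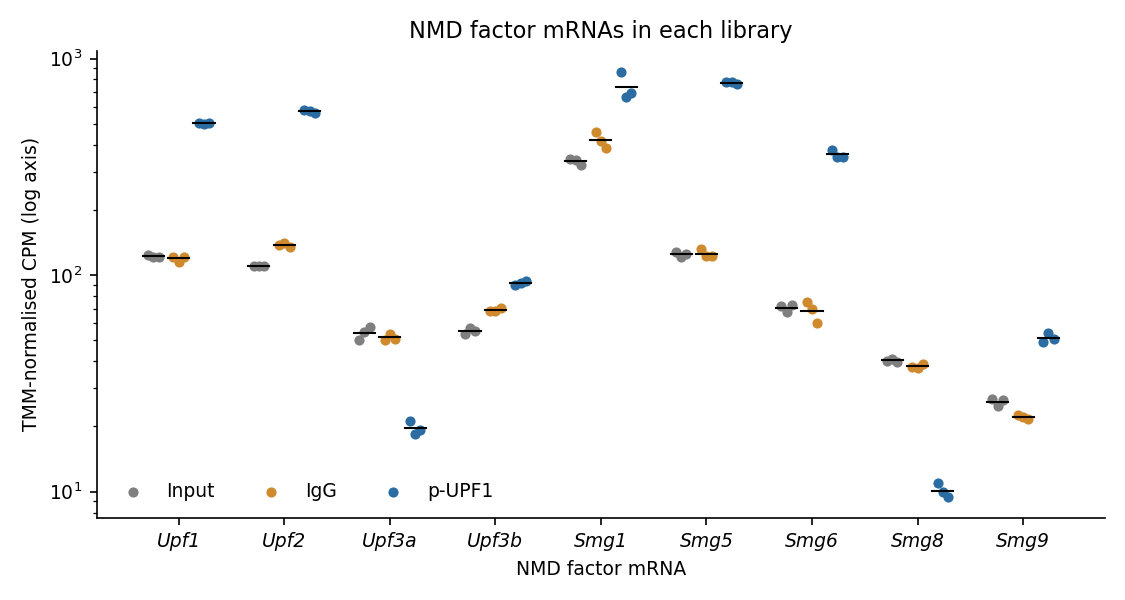
TMM-normalised CPM (log axis) of the 9 NMD factor mRNAs in each library, with a black line at each group mean (n = 3). The p-UPF1 points lie above all others for 7 mRNAs and below all others for Upf3a and Smg8, the 2 whose direction turns on a scale of equal mitochondrially encoded mRNA.

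Upf1 (gene 19704, chromosome 8, 70331493 to 70353423, minus strand) encodes the helicase that the antibody targets in its phosphorylated form. Its mRNA was at 505, 500.5 and 505 CPM in p-UPF1 libraries C, B and A (the letters of the columns), at 122, 115 and 121 CPM in IgG, and at 123, 121 and 122 CPM in input. The IgG and input values overlapped and each p-UPF1 value lay far above them, with the smallest relative spread of any member in p-UPF1 (0.522% of the mean). Log2FC against IgG was 2.08 ± 0.04 (SE, adjusted P = 3.98e-17) and against input 2.04 ± 0.04 (adjusted P = 3.11e-17) in the quasi-likelihood test of edgeR (Benjamini-Hochberg adjustment). The value over input lay close to the minimum of 2, and Upf1 missed the criterion with library size alone (Log2FC 1.996), with upper-quartile factors (1.98) or with glmTreat. Its exons share 100 bases with Gdf1 and 96 with Cers1 on the opposite strand, about 2.15% and 2.06% of its exon bases.

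Upf2 (gene 326622, chromosome 2, 5951447 to 6056703, plus strand) encodes the adaptor that binds UPF1 and the UPF3 proteins. It stood at 576, 572 and 562 CPM in p-UPF1 libraries C, B and A, at 137, 141 and 135 CPM in IgG, and at 109.6, 109.95 and 110.5 CPM in input. The 3 groups did not overlap, and IgG lay above input. Log2FC against IgG was 2.05 ± 0.04 (SE, adjusted P = 3.27e-17) and against input 2.37 ± 0.04 (adjusted P = 6.07e-18), while IgG exceeded input by 0.32 ± 0.04 (adjusted P = 3.18e-06), in the quasi-likelihood test of edgeR (Benjamini-Hochberg adjustment).

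The UPF3 paralogues went apart. Upf3b (gene 68134, chromosome X, 37091678 to 37110471, minus strand) was at 89.9, 91.5 and 94.0 CPM in p-UPF1 libraries C, B and A, at 68.2, 68.4 and 70.5 CPM in IgG, and at 53.1, 56.8 and 55.3 CPM in input. Upf3a (gene 67031, chromosome 8, 13785055 to 13798723, plus strand) was at 21.1, 18.5 and 19.3 CPM in p-UPF1 libraries, at 50.4, 53.4 and 50.8 CPM in IgG, and at 49.9, 54.7 and 57.6 CPM in input. Both mRNAs thus drew like numbers of reads in input, and the p-UPF1 libraries held more of the one and less of the other without overlap with either background. Log2FC of Upf3b against IgG was 0.41 ± 0.05 (SE, adjusted P = 3.07e-07) and against input 0.74 ± 0.05 (adjusted P = 1.55e-10) in the quasi-likelihood test of edgeR (Benjamini-Hochberg adjustment). Log2FC of Upf3a against IgG was -1.39 ± 0.07 (SE, adjusted P = 9.07e-12) and against input -1.46 ± 0.07 (adjusted P = 3.59e-12) by the same test. With equal mitochondrially encoded mRNA the values were 3.30 and 3.58. Such scaling shifts all genes nearly alike, so Upf3a stayed below the median gene by construction. The gap between the paralogues does not depend on scaling when both are read in one library, as the count ratios further on show.

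Smg1 (gene 233789, chromosome 7, 118131308 to 118244437, minus strand) encodes the kinase of UPF1 and had the longest mRNA of the 9, at 15553 bases. It was at 867, 667 and 693 CPM in p-UPF1 libraries C, B and A, at 458, 414 and 387 CPM in IgG, and at 345, 339 and 322 CPM in input. All p-UPF1 values lay above the others. Library C stood apart from B and A, which gave Smg1 the widest relative spread of any member in p-UPF1 (14.6% of the mean). The library of letter C was also the highest in IgG and in input. Log2FC against IgG was 0.82 ± 0.08 (SE, adjusted P = 6.39e-08) and against input 1.15 ± 0.08 (adjusted P = 8.28e-10) in the quasi-likelihood test of edgeR (Benjamini-Hochberg adjustment). Without p-UPF1 library C the values were 0.70 and 1.02.

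Smg8 and Smg9 encode the subunits that form a complex with SMG1, and their mRNAs went apart as the UPF3 paralogues did. Smg9 (gene 71997, chromosome 7, 24397517 to 24422777, plus strand) was at 49.0, 53.8 and 50.5 CPM in p-UPF1 libraries C, B and A, at 22.5, 22.0 and 21.5 CPM in IgG, and at 26.6, 24.9 and 26.4 CPM in input. Smg8 (gene 74133, chromosome 11, 87077732 to 87086777, minus strand) was at 10.9, 9.93 and 9.48 CPM in p-UPF1 libraries, at 37.5, 37.4 and 38.7 CPM in IgG, and at 40.3, 40.9 and 39.8 CPM in input. Smg9 drew fewer reads than Smg8 in each IgG and input library and more in each p-UPF1 library. Log2FC of Smg9 against IgG was 1.21 ± 0.06 (SE, adjusted P = 1.08e-11) and against input 0.98 ± 0.06 (adjusted P = 1.21e-10) in the quasi-likelihood test of edgeR (Benjamini-Hochberg adjustment). Log2FC of Smg8 against IgG was -1.90 ± 0.07 (SE, adjusted P = 1.39e-13) and against input -1.995 ± 0.07 (adjusted P = 5.48e-14) by the same test. With equal mitochondrially encoded mRNA the values were 2.79 and 3.04, again below the median gene by construction. Among all genes tested, the Log2FC of Smg8 over IgG stood at percentile 7.55 and that of Upf3a at percentile 14.2.

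Smg5 (gene 229512, chromosome 3, 88336259 to 88362338, plus strand), the adaptor that binds phosphorylated UPF1, had the highest Log2FC of the 9 over each background. It was at 778, 776 and 765 CPM in p-UPF1 libraries C, B and A, at 132, 122 and 123 CPM in IgG, and at 128, 121 and 125 CPM in input. The IgG and input values overlapped, and each p-UPF1 value lay far above them. Log2FC against IgG was 2.62 ± 0.04 (SE, adjusted P = 1.02e-17) and against input 2.63 ± 0.04 (adjusted P = 6.47e-18) in the quasi-likelihood test of edgeR (Benjamini-Hochberg adjustment), at percentile 97.5 and 98.0 of all genes tested.

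Smg6 (gene 103677, chromosome 11, 74925854 to 75164448, plus strand), the endonuclease, was at 380 CPM in p-UPF1 library C and 350.1 and 352 CPM in B and A. It was at 75.5, 69.6 and 60.2 CPM in IgG and at 71.8, 67.2 and 73.0 CPM in input. Again IgG and input overlapped, with the widest relative spread of any member in IgG (11.3% of the mean). Log2FC against IgG was 2.40 ± 0.07 (SE, adjusted P = 4.14e-15) and against input 2.35 ± 0.07 (adjusted P = 3.78e-15) in the quasi-likelihood test of edgeR (Benjamini-Hochberg adjustment). The exons of Smg6 share 95 bases with Srr on the opposite strand (1.63% of its exon bases), and whether the RIP-seq counts used strand is not stated.

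**Figure D2:**
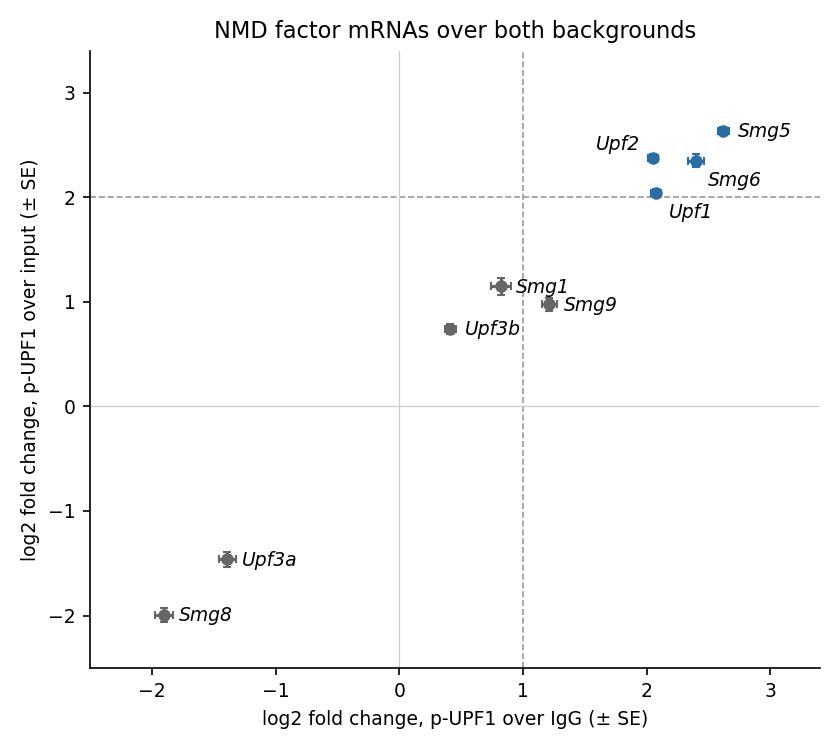
Log2FC of p-UPF1 over IgG (x axis) and over input (y axis) for each NMD factor mRNA, with SE bars from edgeR's quasi-likelihood test (3 libraries per group) and dashed lines at the minimum of the criterion on each axis. The 4 mRNAs in blue lie past both lines, and Upf3a and Smg8 lie below 0 on both axes with TMM scaling but not on a scale of equal mitochondrially encoded mRNA.

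Log2FC of IgG over input ran from -0.24 to 0.33 over the 9 mRNAs, beside quartiles of -0.36 and 0.16 over all genes tested. Upf2, Upf3b and Smg1 were higher in IgG by Log2FC of 0.32, 0.33 and 0.32 (largest adjusted P = 0.00301, quasi-likelihood test of edgeR, Benjamini-Hochberg adjustment), and Smg9 was lower (-0.24, SE 0.06, adjusted P = 0.00571, same test). Thus 3 members were higher, where 18.2% of all genes tested were, and 1 was lower, where 34.7% were. With equal mitochondrially encoded mRNA 8 were higher and 0 lower, where 46.6% and 8.33% of all genes were. The lower call of Smg9 was lost with library size alone (-0.12), with the TMM reference set to an input or to an IgG library (-0.13 each), without the low-count filter (-0.15) and when only the 2 groups were fitted (-0.13), and the sign turned with equal mitochondrially encoded mRNA (0.11). Log2FC of the 5 others ran from -0.09 (Smg8) to 0.01 (Smg5) and did not pass the test. Smg5 passed it as higher with the TMM reference set to an input or to an IgG library (0.12 each), with library size alone (0.13), when only the 2 groups were fitted (0.12) and with equal mitochondrially encoded mRNA (0.36). The sign of each of the 5 turned under at least 1 scaling or left-out library. The median Log2FC of the 9 was -0.03, beside -0.10 for all genes.

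Count ratios within one library do not depend on how libraries are scaled. The ratio of Upf3b to Upf3a reads was 4.26, 4.96 and 4.87 in p-UPF1 libraries C, B and A, 1.35, 1.28 and 1.39 in IgG, and 1.06, 1.04 and 0.960 in input. Means were 4.69 ± 0.383, 1.34 ± 0.0547 and 1.02 ± 0.0543 (SD, n = 3). The ratio of Smg9 to Smg8 reads was 4.49, 5.42 and 5.32 in p-UPF1 libraries C, B and A, 0.601, 0.590 and 0.556 in IgG, and 0.662, 0.610 and 0.663 in input. Neither ratio overlapped between p-UPF1 and the other libraries. Over the 3 p-UPF1 against the 6 other libraries, the log2 ratio differed by 2.003 for Upf3b to Upf3a (4.01-fold) and by 3.05 for Smg9 to Smg8 (8.26-fold). Against IgG alone these differences were 1.81 and 3.12, and against input alone 2.20 and 2.97. IgG and input did not overlap in either ratio, with IgG higher for Upf3b to Upf3a and lower for Smg9 to Smg8. Each pair joins a member known to be higher in p-UPF1 with one known to be lower (with TMM), which fixes the direction of the ratio, so the differences are a description with no test.

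**Figure D3:**
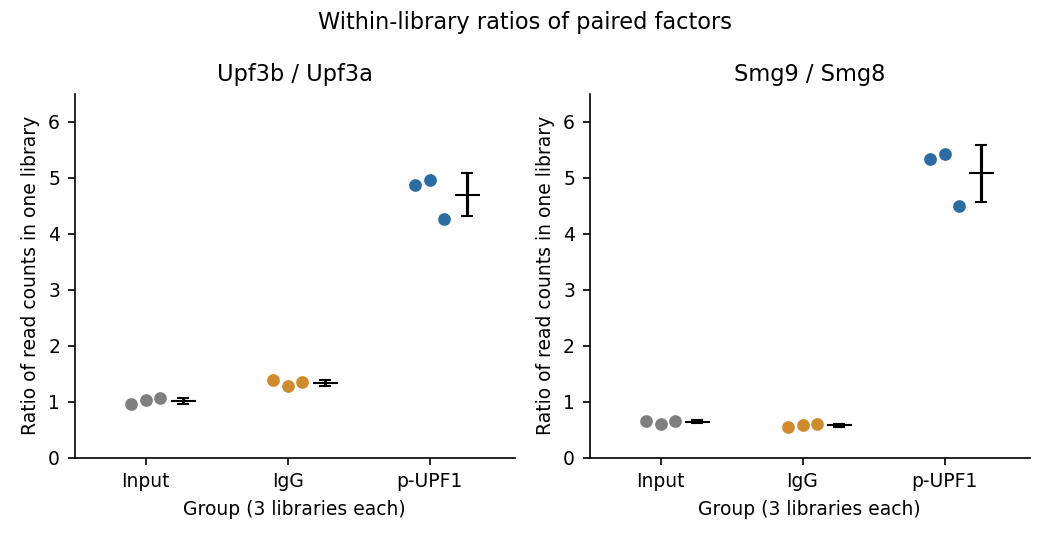
Ratio of read counts of Upf3b to Upf3a (left) and of Smg9 to Smg8 (right) in each of the 9 libraries, with mean ± SD per group (n = 3) in black. Both ratios lie between 4.26 and 5.42 in the p-UPF1 libraries and at most at 1.39 in the IgG and input libraries.

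Levels of different genes were set side by side as CPM per kilobase of RefSeq exon. In input, Upf3a stood highest at 38.6 ± 2.76 CPM per kilobase, followed by Smg5 (28.0 ± 0.735), Upf1 (26.3 ± 0.219), Upf3b (23.5 ± 0.778), Smg1 (21.6 ± 0.790), Upf2 (21.3 ± 0.0850), Smg8 (12.5 ± 0.170), Smg6 (12.2 ± 0.534) and Smg9 (11.6 ± 0.413) (SD, n = 3). Smg1 and Upf2 overlapped across libraries, as did Smg8 with Smg6 and Smg6 with Smg9, and the other neighbours did not. The first place of Upf3a depended on the length used. Dividing the same CPM by the longer transcript of GENCODE M21 (2057 in place of 1402 bases) gave a mean of 26.3 CPM per kilobase, below Smg5 and level with Upf1. Reads were not counted again over that transcript, so the rank of Upf3a was not settled. In p-UPF1 libraries the order was Smg5 (174 ± 1.60 CPM per kilobase), Upf2 (110.1 ± 1.38), Upf1 (108 ± 0.565), Smg6 (62.0 ± 2.86), Smg1 (47.7 ± 6.97), Upf3b (39.2 ± 0.892), Smg9 (22.9 ± 1.11), Upf3a (14.0 ± 0.970) and Smg8 (3.14 ± 0.229). There only Upf2 and Upf1 overlapped. Smg6, which overlapped both neighbours in input, overlapped none in p-UPF1 libraries.

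The annotation gives features that the choice of the 9 mRNAs did not use. The RefSeq 3′ UTR was 4229 bases long in Smg1, 1498 in Smg6, 1261 in Upf2, 1229 in Smg5, 990 in Upf1, 834 in Upf3b, 399 in Smg9, 221 in Smg8 and 64 in Upf3a. Over the 11900 tested genes with a coding transcript its quartiles were 420.0, 1015 and 2027 bases, which part the genes into 4 length bins. The 4 bound mRNAs lay between 990 and 1498 bases, near the middle of all genes, and both mRNAs that were lower in p-UPF1 with TMM scaling (and higher with equal mitochondrially encoded mRNA) lay in the shortest bin. Smg9 lay there too and was higher in p-UPF1, and Smg1, with the longest 3′ UTR, was not bound. For Upf3a the annotations disagreed, as GENCODE M21 gives it a 3′ UTR of 719 bases, an alternative looked at after the data were seen. That length lies in the second bin of the GENCODE lengths.

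Across all genes, Log2FC over IgG had a median of -0.78 in the bin with the shortest 3′ UTRs, -0.01 in the second, 0.43 in the third and 0.39 in the fourth. The bound share was 1.68%, 3.97%, 9.75% and 9.99% in these bins. Spearman's rho between 3′ UTR length and Log2FC over IgG was 0.617 over the 9 mRNAs and 0.356 over the 11900 genes, given as a description since genes of one set of libraries are not independent. With coding length the values were 0.517 and 0.129. Set against the genes of their own bin, the Log2FC over IgG of Upf1 stood at percentile 96.0, Smg5 at 95.3, Smg9 at 94.6, Smg6 at 93.4 and Upf2 at 89.6. Upf3b (64.0) and Smg1 (63.2) stood nearer the middle of their bins, and Upf3a (29.8) and Smg8 (17.4) in the lower part. With the GENCODE lengths Upf1, Upf3a and Smg9 each fell in the next longer bin, at percentile 90.6, 10.3 and 87.0, and Smg5 (95.6) and Smg6 (93.9) then stood above Upf1.

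**Figure D4:**
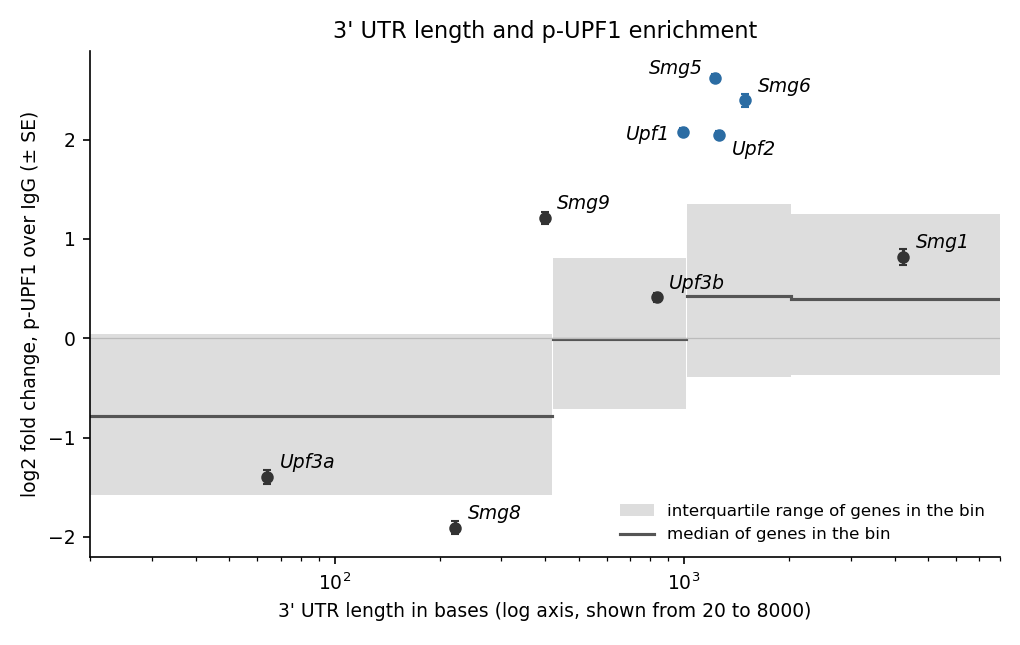
Log2FC of p-UPF1 over IgG (with SE, 3 libraries per group, TMM scaling) against RefSeq 3′ UTR length (log axis) for the 9 mRNAs, the bound ones in blue. Grey boxes span the interquartile range of the tested genes in each bin of 3′ UTR length and dark lines give their medians, which run from -0.78 to 0.43.

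Other features linked to NMD were counted among the 9 and not tested. None had an exon junction over 50 bases past its stop codon, as 0.294% of the tested genes did. The last junction lay 3 bases past the stop codon in Upf1 and before it in the 8 others. The RefSeq 5′ UTRs of Upf2, Smg1 and Smg5 each held 1 upstream ATG, where 48.5% of the genes held at least 1. Only that of Smg5 opened a reading frame that closed before the main start codon, 93 bases long and ending 28 bases ahead of it, where 40.7% of the genes had such a frame. The bound share was 5.80% among genes with a closed upstream frame and 6.72% among genes without one. The median Log2FC over IgG went the other way, at 0.17 with such a frame and -0.12 without. Among the 35 genes with a junction over 50 bases past the stop codon 22.9% were bound, against 6.30% of the others.

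The rest of the pathway was read from a list of 22 genes, all tested. In the quasi-likelihood test of edgeR (Benjamini-Hochberg adjustment), 4 were higher and 15 lower than in IgG, 5 were higher and 16 lower than in input, and 1 was bound, with a median Log2FC of -0.79 over IgG. Among all genes tested 40.4% were higher and 42.2% lower than in IgG, 40.8% and 42.6% than in input, and 6.25% were bound, so 1 bound gene of 22 lies near the share of all genes. With equal mitochondrially encoded mRNA all 22 were higher than in each background, as were 99.4% of all genes in each contrast. All 3 release factor genes were lower with TMM scaling, among them Gspt1 (eRF3a), at 153 ± 1.38 CPM in p-UPF1 and 347 ± 30.6 in IgG (SD, n = 3, Log2FC -1.18). Of the 6 exon junction complex genes 4 were lower than in IgG, with Magoh at 6.58 ± 0.245 CPM in p-UPF1, 48.0 ± 2.34 in IgG and 75.0 ± 2.77 in input (Log2FC -2.87 over IgG). Casc3, which encodes its peripheral subunit, was higher, at 212 ± 3.37 CPM in p-UPF1 and 109 ± 4.65 in IgG (Log2FC 0.96). Rnps1 stood at -0.06 over IgG and did not pass the test.

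Among the 5 genes for SMG1 and UPF1 cofactors, the RNA helicase gene Dhx34 was higher (Log2FC 1.19 over IgG) and with TMM the 4 others lower, where 40.4% and 42.2% of all genes were, the AAA ATPase genes Ruvbl1 (-1.74) and Ruvbl2 (-1.50) most. Of the 4 decay partner genes, Dcp1a, a decapping activator, was the only bound gene of the list, at 408 ± 13.0 CPM in p-UPF1, 88.2 ± 5.41 in IgG and 83.6 ± 1.42 in input, with Log2FC of 2.21 and 2.29. Pnrc2, which encodes a decapping coactivator, had a Log2FC of 2.17 over IgG and 1.65 over input, short of the minimum. The gene of the decapping enzyme, Dcp2, was at 356 ± 87.2 CPM in IgG, 172 ± 6.75 in p-UPF1 and 129 ± 1.32 in input, so with TMM it was lower than IgG (-1.05) and higher than input (0.42). Xrn1, the gene of a 5′ to 3′ exonuclease, was at 49.1 ± 2.65 CPM in p-UPF1, 71.5 ± 8.56 in IgG and 57.2 ± 1.40 in input, lower than both with TMM (-0.54 and -0.22). Of the 4 genes of other UPF1-dependent decay routes, with TMM 0 were higher and 2 lower than IgG and 0 higher and 4 lower than input, beside 40.4%, 42.2%, 40.8% and 42.6% of all genes. Slbp, the histone stem-loop binding protein, was lowest at -1.54 over IgG. With equal mitochondrially encoded mRNA all of these genes were higher than both backgrounds.

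The genes whose pattern over the 9 libraries lay nearest to that of 3 members were found by the root mean square difference of log2 CPM, each gene centred on its own mean. This choice by itself makes their Log2FC close to that of the member. Nearest to Upf1 were Rexo4 (0.03), Mis12 (0.04) and Man1b1 (0.04), with Log2FC over IgG of 2.10, 2.12 and 2.15. Nearest to Smg5, the member with the highest Log2FC over IgG, were Plekhb2 (0.04), Adar (0.05) and Ccdc25 (0.05), at 2.65, 2.58 and 2.55. Nearest to Smg8, the lowest, were Hat1 (0.04), Hnrnpa0 (0.04) and Sec11c (0.05), at -1.90, -1.91 and -1.94.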

How the data were processed

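The authors deposited a table of raw read counts, with NCBI Gene IDs as rows and libraries as columns. Per the labels, a directional kit was used, and the submitters' processing notes name cutadapt, HISAT2, featureCounts and mm10, without versions. The methods give HISAT2 as unstranded for the RNA-seq. For RIP-seq the use of strand is not given in the sources used here, and reads of overlapping genes on opposite strands may not be separated. Reads held no molecular identifiers, so counting error understates the true error. Columns carry letters and were assigned to groups only.

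Of the 27179 identifiers, 25275 matched a RefSeq symbol (GRCm38.p6). Genes were kept with filterByExpr (minimum count 10, minimum total 15) and scaled by TMM. One model of the 3 groups was fitted to the 9 libraries in edgeR 4.0.16 (R 4.3.3), with 6 residual degrees of freedom and a prior count of 0.125, and tested two-sided by glmQLFTest with Benjamini-Hochberg adjustment over the 13129 genes. SE came from the test statistic. The script was tested on simulated data. The planned exact permutation test of the ratios is not reported, since each pair was chosen with its direction known. Transcript features used the RefSeq transcript with the longest coding sequence. Alternatives used DESeq2 1.42.0 and limma 3.58.1. Named genes were the 9 members, the genes of the pathway and marker lists, and the 3 genes nearest in pattern (mean of at least 10 CPM, prior count 2) to Upf1 and to the members of highest and lowest Log2FC over IgG. The members, lists and ratio pairs were chosen with earlier results of these data known.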

Additional observations from a re-analysis of the deposited data

How the results depend on the processing

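No paired analysis was possible by the replicate numbers of the labels, since columns carry letters. Each letter recurs in every group, and a replicate block by letter, added after the data were seen, changed no call of the 9 mRNAs (7 higher, 2 lower and 4 bound). With that block the SE of Log2FC over IgG fell most for Smg1 (0.080 to 0.050) and Smg6 (0.066 to 0.055). It rose for Upf3a, Smg8 and Smg9. Nothing says that a letter marks a shared culture, and deviations from group means correlated at r of -0.0051 to 0.054 within letters and -0.056 to 0.022 between them. Over IgG and over input, no Log2FC of the 9 mRNAs changed sign or crossed the threshold of its adjusted P under the alternatives run, except on a scale of equal mitochondrially encoded mRNA. There Upf3a (3.30 and 3.58) and Smg8 (2.79 and 3.04) turned, 0 members were lower in p-UPF1, 9 were bound, and of the 22 other pathway genes 22 were higher and 0 lower, where 99.4% of all genes were higher in each contrast and 96.9% were bound. Counting that list under the alternatives was added after the data were seen. The bound call of Upf1 was lost with library size alone, upper-quartile factors and glmTreat.

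IgG over input depended on the scale. In the order library size alone, input reference, IgG reference, 2 groups only and equal mitochondrially encoded mRNA, Log2FC of Upf1 turned to 0.082, 0.071, 0.073, 0.073 and 0.31, of Upf3a to 0.044, 0.033, 0.036, 0.036 and 0.27, of Smg6 to 0.067, 0.056, 0.059, 0.059 and 0.30, and of Smg8 to 0.025, 0.014, 0.016, 0.016 and 0.25. Without the filter Upf1 was 0.055, Upf3a 0.017 and Smg6 0.040, and with upper-quartile factors Upf1 was 0.036 and Smg6 0.021. Smg9 was 0.11 with equal mitochondrially encoded mRNA, where 8 members and 46.6% of all genes were higher. The number lower was 0 under these alternatives other than upper-quartile factors. Smg5 passed the test as higher with those 5 alternatives, at 0.12 to 0.36. Leaving out each library gave -0.035 to 0.026 for Smg5 and -0.13 to 0.028 for Smg6.

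The log2 ratio of Upf3b to Upf3a differed by 1.81 against IgG and 2.20 against input alone, and that of Smg9 to Smg8 by 3.12 and 2.97. Leaving out each library gave 1.95 to 2.07 and 2.996 to 3.13. The permutation test planned for these ratios is not used, since the choice of pairs fixed its outcome. Smg8 had 220 to 241 reads in p-UPF1 libraries.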
